A study of Mus musculus with 6 samples.

Results

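The 9 osteoclast-type differentiation genes Acp5, Ctsk, Mmp9, Dcstamp, Atp6v0d2, Nfatc1, Tnfrsf11a, Itgb3 and Calcr were followed in mouse tumours modelling high-grade serous ovarian carcinoma, and all 9 had a value among the 16344 genes of the deposited table. They were chosen by name as genes of CSF1-dependent cell fusion and matrix resorption, with earlier results of these tumours known, among them that several were high in 1 vehicle tumour. Their levels and differences are therefore given as a description, with no test of the 9 genes. The 3 AZD7507 tumours came from animals that carried intraperitoneal grafts of the murine 60577 line, had 3 weekly cycles of carboplatin and then received the CSF1R inhibitor AZD7507 by daily gavage for 84 days. The 3 vehicle tumours carried the same graft and the Vehicle label, and the labels describe the carboplatin cycles for the animals in general. Tumours had been left to establish for 21 days in syngeneic hosts, of which no strain or age was given in the sources used here, and were collected at the humane endpoint. All tumours derive from 1 cell line, and the labels give no animal for a tumour, so p-values measure the spread between these libraries, which may be partly technical.

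Osteoclasts are the multinucleated cells that dissolve bone, and they form when precursors of the macrophage lineage fuse. CSF1, acting through CSF1R, keeps these precursors alive and lets them make RANK (Tnfrsf11a), and RANKL then acts through RANK to switch on the transcription factor NFATc1. NFATc1 drives genes for fusion (Dcstamp), for the proton pump (Atp6v0d2), for secreted enzymes of resorption (Acp5, Ctsk, Mmp9) and for adhesion to matrix (Itgb3). Several of these genes are also used elsewhere: Mmp9 by neutrophils and macrophages, Ctsk by fibroblasts, Itgb3 by platelets and endothelium, and Nfatc1 by lymphocytes and endothelium. In bulk tumour RNA, fewer cells of a type and less RNA per cell cannot be told apart.

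Values were log2 RPKM (read density scaled to gene length and library size) normalized by the authors with cqn, and the read depth behind them is unknown. In the deposited values the upper quartile of all genes was 3.52 and the median 2.32. Vehicle 2 and AZD7507 2 held far more transcripts of pancreatic acinar cells than the other libraries. The summed RPKM of 9 acinar genes (of 12 listed) was 10.6, 5409 and 3.12 in AZD7507 1, 2 and 3, against 7.07, 4904 and 2.35 in Vehicle 1, 2 and 3. The drug target Csf1r fell, as given with its pathway below. Markers that would define an osteoclast or bone more narrowly were sparse. The receptor genes Oscar and Siglec15, the fusion gene Ocstamp and the bone genes Bglap, Ibsp and Dmp1 had no value here, so the 9 genes are called osteoclast-type and no osteoclast is inferred from them.

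Promoter sequence was held in RefSeq (GRCm38.p6) for 4 of the 9 genes, and 5 windows of 250 bases before a transcription start are shown for Tnfrsf11a, Ctsk and Acp5, the receptor and the enzymes whose levels the results turn on. Capitals mark matches, on either strand, to 6 motifs chosen after the windows had been seen. These were the NFAT core GGAAA, the PU.1 core GAGGAA, the AP-1 site TGANTCA, the E-boxes CACGTG and CATGTG, and the TATA box TATAAA. No 2 matches overlapped.
Tnfrsf11a (chr1:105780473-105780722, plus strand): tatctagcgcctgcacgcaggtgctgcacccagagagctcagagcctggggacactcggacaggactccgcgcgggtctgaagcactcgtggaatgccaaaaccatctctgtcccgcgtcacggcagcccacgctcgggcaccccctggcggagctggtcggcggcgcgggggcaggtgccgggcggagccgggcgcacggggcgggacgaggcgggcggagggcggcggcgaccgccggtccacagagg
Ctsk (chr3:95498960-95499209, plus strand): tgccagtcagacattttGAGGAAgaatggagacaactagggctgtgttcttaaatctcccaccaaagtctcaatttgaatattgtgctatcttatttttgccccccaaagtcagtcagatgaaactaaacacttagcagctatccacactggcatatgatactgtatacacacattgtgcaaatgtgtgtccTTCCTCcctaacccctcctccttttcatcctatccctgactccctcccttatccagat
Acp5, upstream start (chr9:22135747-22135996, minus strand): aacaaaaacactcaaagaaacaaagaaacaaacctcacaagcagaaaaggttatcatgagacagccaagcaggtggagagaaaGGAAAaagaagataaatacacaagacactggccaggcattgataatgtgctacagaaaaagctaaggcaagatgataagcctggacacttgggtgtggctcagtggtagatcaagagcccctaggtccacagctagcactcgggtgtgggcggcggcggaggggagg
Acp5, middle start (chr9:22131866-22132115, minus strand): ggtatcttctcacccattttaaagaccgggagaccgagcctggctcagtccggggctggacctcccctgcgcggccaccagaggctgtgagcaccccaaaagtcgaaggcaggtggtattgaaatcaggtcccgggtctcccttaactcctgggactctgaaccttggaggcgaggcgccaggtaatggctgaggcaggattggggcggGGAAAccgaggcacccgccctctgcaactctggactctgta
Acp5, downstream start (chr9:22130599-22130848, minus strand): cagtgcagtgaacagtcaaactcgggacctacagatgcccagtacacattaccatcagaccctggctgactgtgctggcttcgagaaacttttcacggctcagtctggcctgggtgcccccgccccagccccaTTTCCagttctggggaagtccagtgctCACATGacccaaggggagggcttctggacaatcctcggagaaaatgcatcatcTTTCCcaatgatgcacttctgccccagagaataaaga

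The windows differed in base composition. That of Tnfrsf11a had 73.6% G or C and 31 CG pairs, whereas that of Ctsk had 43.2% and 0, and the median over 32851 promoter windows was 52.4% and 6. The Ctsk window held 2 PU.1 cores, at positions -233 to -228 and -58 to -53 from the start, and no other motif searched. The starts are those of RefSeq and can differ from the GENCODE gene bounds given with each gene. PU.1 is a transcription factor of the myeloid lineage. Each Acp5 window held an NFAT core, and the downstream one held 2 of them with an E-box CATGTG between, at -90 to -85. None of the 6 motifs was in the Tnfrsf11a window. Over all 32851 windows, 55.6% held the NFAT core, 23.3% the PU.1 core, 6.75% the AP-1 site, 6.02% the E-box CACGTG, 12.3% the E-box CATGTG and 12.4% the TATA box, so a match describes the letters and not a bound site.

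The secreted enzymes of resorption, Ctsk, Mmp9 and Acp5, had similar levels in the AZD7507 tumours and in 2 of the 3 vehicle tumours, and were far higher in Vehicle 2. Dcstamp and Nfatc1 were lower in every AZD7507 library than in every vehicle library. Calcr had the opposite sign, with a higher mean in AZD7507 tumours, and Itgb3 had nearly the same mean in both groups. Over the 9 genes the median difference was -0.997 on the log2 scale (AZD7507 minus vehicle) with all libraries and -0.07 without Vehicle 2, against 0.03 and 0.01 over all genes. None of the 9 passed limma's test over all genes (0 of 9 at a Benjamini-Hochberg adjusted p under 0.05, where 0.337% of all genes passed downward and 0.0184% upward), and nothing is read from that count because the genes were chosen with these values known. At an unadjusted p under 0.05, 2 of the 9 were lower and 0 higher, where 5.49% of all genes were lower and 3.31% higher. Nothing is read from this count either, for the same reason.

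**Figure D1:**
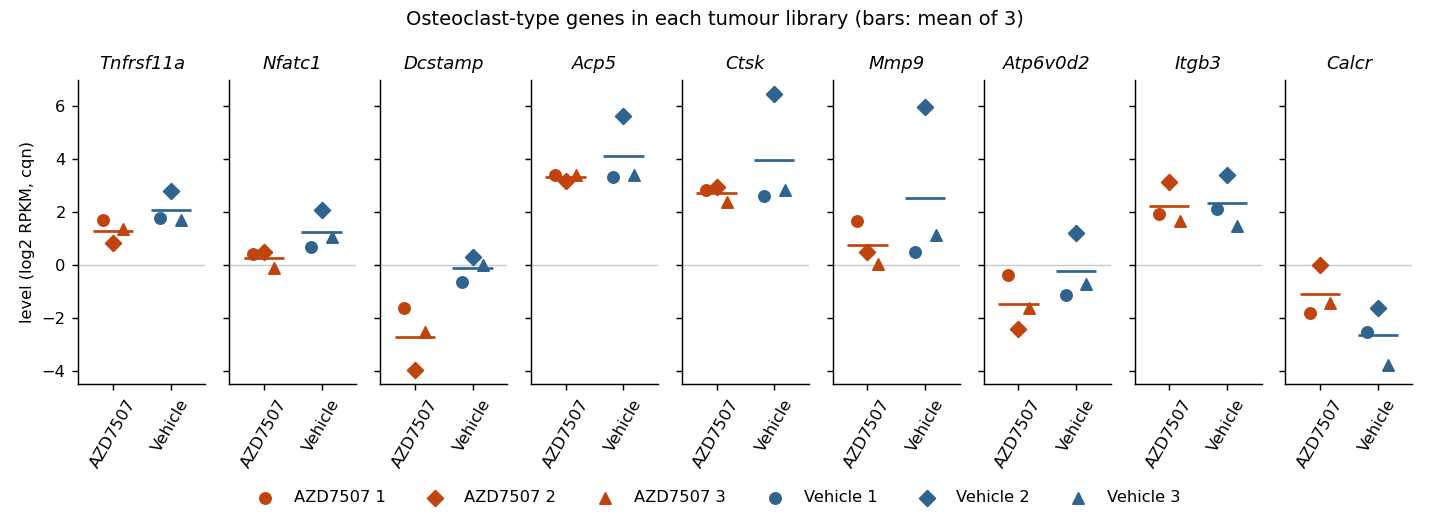
Level of each osteoclast-type gene (log2 RPKM) in the 3 AZD7507 libraries, left, and the 3 vehicle libraries, right; symbols give the library, bars the group mean, and diamonds the 2 libraries rich in acinar transcripts. Ctsk, Mmp9 and Acp5 stand near 6 in Vehicle 2 and lie between 0.05 and 3.39 in the other 5 libraries.

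Tnfrsf11a encodes RANK, the receptor through which RANKL commits precursors to the osteoclast fate. Its locus is chromosome 1, 105780718 to 105847981 on the plus strand (GRCm38, GENCODE M21). Its level was 1.69, 0.83 and 1.35 log2 RPKM in AZD7507 1, 2 and 3, against 1.78, 2.79 and 1.68 in Vehicle 1, 2 and 3. The groups overlapped by a narrow margin, since AZD7507 1 lay just above Vehicle 3, and Vehicle 2 was highest. The difference was -0.79 (SE 0.34) with all libraries and -0.44 (SE 0.26) without Vehicle 2. Without both acinar-rich libraries it was -0.21 (SE 0.17).

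Nfatc1 encodes the transcription factor that controls the osteoclast programme. The gene, on chromosome 18 at 80606205 to 80713071 on the minus strand, overlaps an antisense model on the opposite strand, and since the strand setting was not given, reads of the pair cannot be told apart. Levels were 0.42, 0.49 and -0.11 in AZD7507 1, 2 and 3, against 0.67, 2.07 and 1.04 in Vehicle 1, 2 and 3. Each AZD7507 library was below each vehicle library. Leaving out Vehicle 2, the highest, could not have made the groups overlap. The difference was -0.997 (SE 0.37), equal to a ratio of AZD7507 to vehicle of 0.501, and -0.59 (SE 0.26) without Vehicle 2. The difference was thus smaller without Vehicle 2, and its sign could not have changed.

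Dcstamp encodes a membrane protein that osteoclast precursors need in order to fuse. Its locus is chromosome 15, 39745930 to 39760938 on the plus strand. It was at -1.61, -3.96 and -2.50 in AZD7507 1, 2 and 3, against -0.63, 0.30 and 0.02 in Vehicle 1, 2 and 3, with no overlap between the groups. Vehicle 2 was only 0.28 above the next library, so this gene did not share the high value of Ctsk and Mmp9. The difference was -2.59 (SE 0.60), the most negative of the 9, and -2.39 (SE 0.69) without Vehicle 2. In linear units Dcstamp was at 0.327, 0.0644 and 0.177 RPKM in the AZD7507 libraries and at 0.646, 1.23 and 1.02 RPKM in the vehicle libraries. The log2 difference of Dcstamp thus rests on low values, and after adding 1 RPKM to each value it was -0.72 (SE 0.14).

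With all libraries, 2 of the 9 genes, Dcstamp and Nfatc1, were lower in AZD7507 without overlap, where 8.02% of all genes were, and 0 were higher without overlap, where 7.34% were. Without Vehicle 2 the same 2 genes did not overlap downward, where 17.8% of all genes did, and Calcr did not overlap upward, where 17.7% did. For Dcstamp and Nfatc1 this was fixed in advance, since Vehicle 2 was their highest library.

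**Figure D2:**
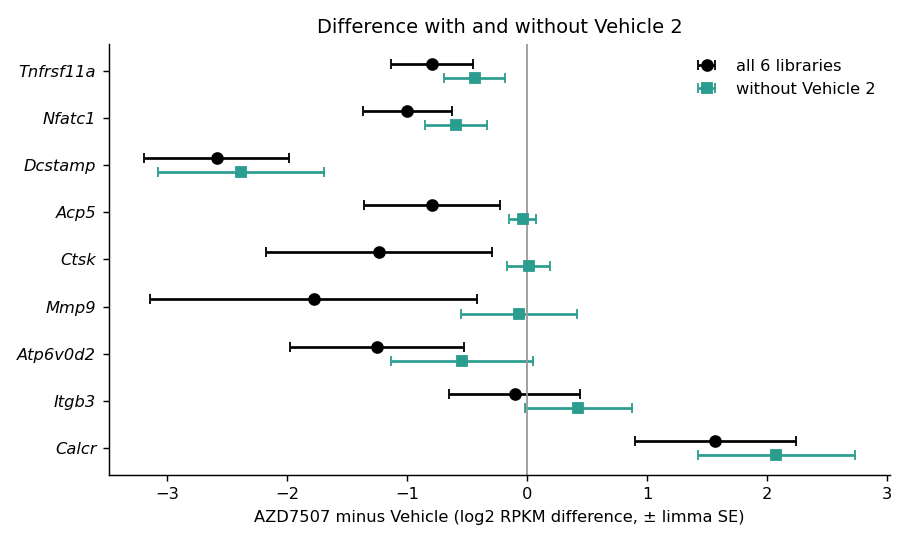
AZD7507 minus vehicle difference in log2 RPKM for each gene, with limma's standard error as bars, for all 6 libraries (black circles) and without Vehicle 2 (green squares). The differences of Acp5, Ctsk and Mmp9 lie between -1.78 and -0.79 with all libraries and between -0.07 and 0.01 without Vehicle 2, while that of Dcstamp is -2.59 and -2.39.

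Ctsk encodes cathepsin K, the protease with which osteoclasts degrade bone collagen. The gene spans chromosome 3, 95499256 to 95509362 on the plus strand. Its level was 2.84, 2.93 and 2.39 in AZD7507 1, 2 and 3, against 2.61, 6.45 and 2.82 in Vehicle 1, 2 and 3. Vehicle 2 alone was high, and the other 2 vehicle libraries lay within the AZD7507 range. In linear units Vehicle 2 held 87.7 RPKM of Ctsk, and the other 5 libraries held 5.26 to 7.64 RPKM. The difference was -1.24 (SE 0.94) with all libraries and 0.01 (SE 0.18) without Vehicle 2. Its promoter window is the one printed above with 2 PU.1 cores.

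Mmp9 encodes a gelatinase that osteoclasts, macrophages and neutrophils secrete. Its position is chromosome 2, 164940780 to 164955850 on the plus strand. Its level was 1.66, 0.51 and 0.05 in AZD7507 1, 2 and 3, against 0.48, 5.94 and 1.14 in Vehicle 1, 2 and 3. Vehicle 2 held 61.6 RPKM, and the other libraries ranged from 1.04 to 3.16 RPKM. The difference was -1.78 (SE 1.36) with all libraries and -0.07 (SE 0.48) without Vehicle 2. The groups overlapped in both settings.

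Acp5 encodes tartrate-resistant acid phosphatase, the enzyme whose activity stain marks osteoclasts. It lies on chromosome 9 at 22126727 to 22135711 on the minus strand and overlaps a processed transcript on the opposite strand. Its level was 3.39, 3.17 and 3.39 in AZD7507 1, 2 and 3, against 3.33, 5.62 and 3.37 in Vehicle 1, 2 and 3. Outside Vehicle 2 it was the steadiest of the 9 genes, at 8.98 to 10.5 RPKM over 5 libraries of both groups, and Vehicle 2 held 49.3 RPKM. The difference was -0.79 (SE 0.57) with all libraries and -0.04 (SE 0.11) without Vehicle 2.

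Atp6v0d2 encodes the d2 subunit of the vacuolar proton pump, which osteoclasts use to acidify the bone surface and which also takes part in fusion. The gene spans chromosome 4, 19876841 to 19922605 on the minus strand. Its level was -0.37, -2.39 and -1.61 in AZD7507 1, 2 and 3, against -1.11, 1.21 and -0.72 in Vehicle 1, 2 and 3. AZD7507 1 lay above Vehicle 1 and Vehicle 3, so the groups overlapped with and without Vehicle 2. The difference was -1.25 (SE 0.72), -0.54 (SE 0.59) without Vehicle 2 and -0.08 (SE 0.46) without both acinar-rich libraries. The broadly used paralogue Atp6v0d1 was at 2.99, 2.79 and 2.86 in AZD7507 1, 2 and 3, against 2.74, 3.28 and 2.85 in Vehicle 1, 2 and 3.

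Itgb3 encodes integrin beta 3, which pairs with the integrin alpha v chain to hold osteoclasts to matrix. Its position is chromosome 11, 104608000 to 104670476 on the plus strand. Its level was 1.93, 3.12 and 1.65 in AZD7507 1, 2 and 3, against 2.13, 3.40 and 1.48 in Vehicle 1, 2 and 3. The highest library of each group was the one rich in acinar transcripts. The difference was -0.10 (SE 0.54), 0.43 (SE 0.44) without Vehicle 2 and -0.01 (SE 0.24) without both acinar-rich libraries. Whether acinar tissue or its surroundings had a part in the Itgb3 level was not tested.

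Calcr encodes the calcitonin receptor, through which calcitonin restrains mature osteoclasts. It lies on chromosome 6 at 3685680 to 3764714 on the minus strand. It was at -1.78, -0.0044 and -1.41 in AZD7507 1, 2 and 3, against -2.53, -1.62 and -3.76 in Vehicle 1, 2 and 3. The highest library of each group was again the acinar-rich one, and AZD7507 1 lay just below Vehicle 2. The difference was 1.57 (SE 0.67) with all libraries, 2.08 (SE 0.65) without Vehicle 2 and 1.55 (SE 0.53) without both acinar-rich libraries. No library exceeded 0.997 RPKM, and after adding 1 RPKM to each value the difference was 0.36 (SE 0.17).

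Within the AZD7507 group the mean levels ran in the order Acp5 (3.32 ± 0.13 log2 RPKM, SD, n = 3), Ctsk (2.72 ± 0.29), Itgb3 (2.23 ± 0.78), Tnfrsf11a (1.29 ± 0.43), Mmp9 (0.74 ± 0.83), Nfatc1 (0.26 ± 0.33), Calcr (-1.07 ± 0.94), Atp6v0d2 (-1.46 ± 1.02) and Dcstamp (-2.69 ± 1.18). Of the neighbours in that order, only Acp5 and Ctsk had libraries that did not overlap. In the vehicle group the means were 4.11 ± 1.31 for Acp5, 3.96 ± 2.16 for Ctsk, 2.52 ± 2.98 for Mmp9, 2.34 ± 0.98 for Itgb3, 2.08 ± 0.62 for Tnfrsf11a, 1.26 ± 0.73 for Nfatc1, -0.10 ± 0.48 for Dcstamp, -0.21 ± 1.24 for Atp6v0d2 and -2.64 ± 1.07 for Calcr. There, Nfatc1 and Dcstamp did not overlap, nor did Atp6v0d2 and Calcr, and the other neighbours did. In Vehicle 2 alone the order was different, with Ctsk at the top, then Mmp9, then Acp5. Among all genes measured in Vehicle 2, Ctsk stood at percentile 98.2, Mmp9 at 97.2 and Acp5 at 96.3. In the other 5 libraries Ctsk stood between percentiles 51.6 and 63.2, Mmp9 between 14.97 and 37.1, and Acp5 between 68.1 and 72.6.

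The height of Vehicle 2 was one of the values that chose these genes and is described here without a test. Vehicle 2 was the highest library for 8 of the 9 genes, all but Calcr, against 22.4% of all genes. The trait was shared, since Vehicle 2 was also highest for 14 of 15 macrophage markers and 5 of 6 measured neutrophil markers. Among the pathway genes given below, Vehicle 2 was highest for 44 of 84 (52.4%). The share by list ran from 3 of 12 RANKL axis genes and 3 of 11 measured fusion genes to 7 of 7 repressors. Vehicle 2 stood at least 1 log2 unit above each other library for 6 of the 9 (Mmp9, Ctsk, Acp5, Atp6v0d2, Nfatc1 and Tnfrsf11a), against 0.661% of all genes. Ranked over all 16344 genes by how far Vehicle 2 exceeded the highest of the other 5 libraries, Mmp9 was 1st with 4.29 log2 units and Ctsk 2nd with 3.52. Acp5 was at rank 11 with 2.23 and Atp6v0d2 at rank 32 with 1.59. Nfatc1 and Tnfrsf11a were just inside the 1-unit mark, at 1.03 and 1.02, while Itgb3 and Dcstamp were outside it at 0.28 each and Calcr was at -1.61. Set against the mean of the other 2 vehicle libraries on the log2 scale, Vehicle 2 was 35.1-fold higher for Mmp9, 13.4-fold for Ctsk, 4.82-fold for Acp5, 4.38-fold for Atp6v0d2, 2.33-fold for Nfatc1 and 2.09-fold for Tnfrsf11a. AZD7507 2, the other acinar-rich library, was at 2.93 for Ctsk, 0.51 for Mmp9 and 3.17 for Acp5, within or below the range of the 4 libraries with few acinar transcripts for Mmp9 and Acp5 and above it for Ctsk, where the next library was at 2.84.

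**Figure D3:**
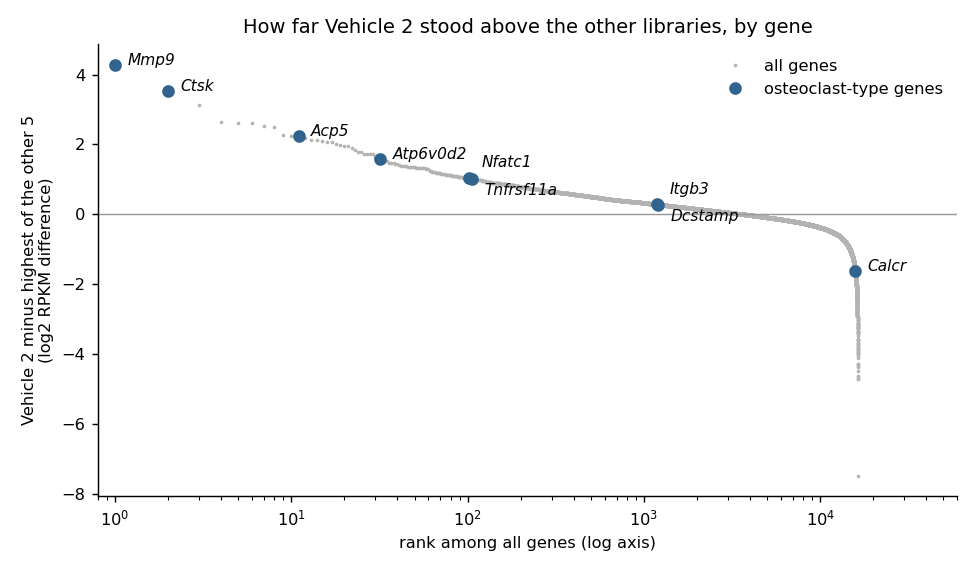
Vehicle 2 minus the highest of the other 5 libraries (log2 RPKM difference) for all 16344 genes, ranked on a log axis, with the osteoclast-type genes in blue. Mmp9 and Ctsk hold ranks 1 and 2, Acp5 rank 11 and Atp6v0d2 rank 32, while Calcr lies at rank 15779.

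The sums of some other marker lists were also highest in Vehicle 2, and those of others were not. The summed RPKM of the 9 osteoclast-type genes was 30.6, 31.2 and 24.3 in AZD7507 1, 2 and 3, against 28.2, 224 and 29.4 in Vehicle 1, 2 and 3. The 15 macrophage markers, all measured, summed to 223, 140 and 92.2 RPKM in AZD7507 1, 2 and 3, against 424, 697 and 459 RPKM in Vehicle 1, 2 and 3. The macrophage sum therefore separated the groups without overlap, while the osteoclast-type sum was at similar levels in 5 libraries. A sum follows its most abundant genes. Gene by gene, 12 of the 15 macrophage markers were lower in AZD7507 without overlap, against 8.02% of all genes. Of the 9 osteoclast-type genes, 2 were, Dcstamp and Nfatc1. The neutrophil markers (6 of 13 measured) summed to 10.1, 6.97 and 6.49 RPKM in AZD7507 1, 2 and 3. In Vehicle 1, 2 and 3 the sums were 3.89, 15.7 and 4.22 RPKM, highest in Vehicle 2. The median difference of these markers was 0.69 with all libraries and 1.36 without Vehicle 2. The defining neutrophil genes Ly6g, Elane, Mpo, Ngp, Camp, Ltf and Retnlg had no value. The fibroblast markers (11 of 11) summed to 628 to 732 RPKM with AZD7507 and 592 to 882 RPKM with vehicle, again highest in Vehicle 2. Bone and cartilage markers (9 of 19 measured) summed to 116 to 324 RPKM with AZD7507 and 139 to 249 RPKM with vehicle. Most of that sum was the osteopontin gene Spp1, which macrophages also express, at 8.22, 7.39 and 6.48 log2 RPKM in AZD7507 1, 2 and 3, against 6.90, 7.73 and 7.28 in Vehicle 1, 2 and 3. Gene by gene, Vehicle 2 was the highest library for 6 of the 9 bone and cartilage markers, and by at least 1 log2 unit for 2 of them, Alpl and Col2a1. The alkaline phosphatase gene Alpl, singled out with Spp1 and Col2a1 after their values had been seen, was at 1.88, 1.88 and 2.20 log2 RPKM in AZD7507 1, 2 and 3, against 1.32, 3.53 and 1.18 in Vehicle 1, 2 and 3. Lymphocyte markers (4 of 11 measured) summed to 1.19 to 1.44 RPKM with AZD7507 and 1.69 to 2.73 RPKM with vehicle, and platelet markers (2 of 11) to 3.18 to 4.35 and 4.30 to 6.44 RPKM. Endothelial markers (9 of 9) summed to 56.1 to 58.5 RPKM with AZD7507 and 40.3 to 51.8 RPKM with vehicle. The endothelial sum was lowest in Vehicle 2, but gene by gene Vehicle 2 was the highest library for 5 of the 9. The part of macrophages, neutrophils, fibroblasts or the site of the graft in the high values of Vehicle 2 was not tested.

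**Figure D4:**
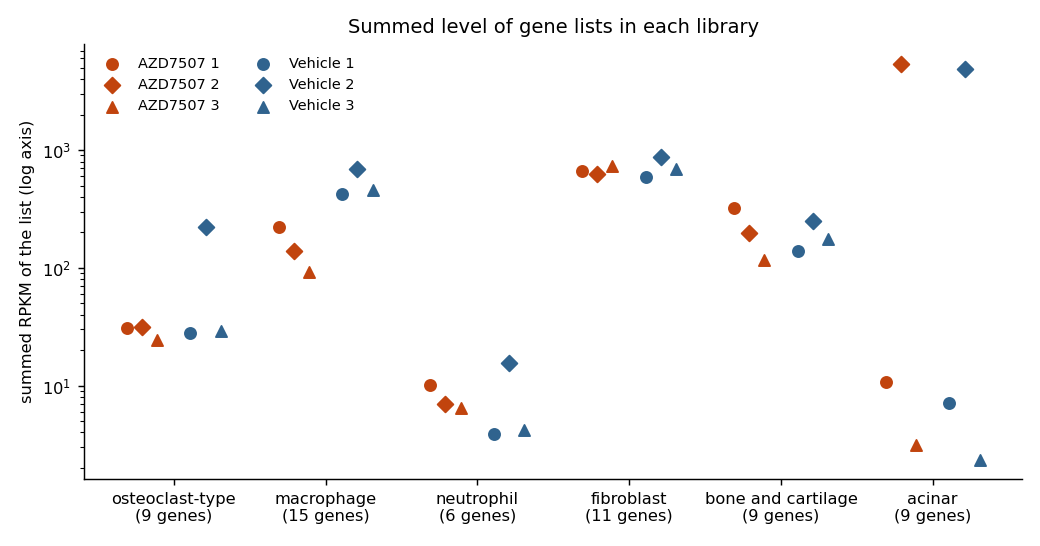
Summed RPKM (log axis) of the osteoclast-type genes and of 5 marker lists in each library, AZD7507 left and vehicle right, with 1 symbol per library. The osteoclast-type sum is 224 in Vehicle 2 and 24.3 to 31.2 in the other 5 libraries, and the macrophage sum is 92.2 to 223 with AZD7507 and 424 to 697 with vehicle.

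The genes whose profile over the 6 libraries was most like the mean profile of the 9 were taken from 438 genes with an SD of at least 1 log2 unit. The 10 closest had a Pearson r of 0.887 to 0.972 over 6 libraries, which is a description that rests on Vehicle 2, the highest library for each of the 10. The closest was Akr1c18, a hydroxysteroid dehydrogenase gene (r 0.972), at 1.13, 0.08 and 0.42 in AZD7507 1, 2 and 3, against 0.37, 3.21 and 0.39 in Vehicle 1, 2 and 3. Next came Slc37a2 (r 0.964), a sugar phosphate transporter gene of macrophages and osteoclasts, at 0.86, 0.60 and 0.14 in AZD7507 1, 2 and 3, against 1.18, 3.14 and 1.30 in Vehicle 1, 2 and 3. The others were the inhibitory lectin gene Clec12a (r 0.954), the hyaluronan receptor gene Lyve1 (0.944), the lens crystallin gene Cryaa (0.941), the chemokine gene Cxcl13 (0.940), the Wnt inhibitor gene Wif1 (0.913), the aquaglyceroporin gene Aqp9 (0.902), the chemokine gene Ccl9 (0.897) and the aldehyde dehydrogenase gene Aldh3a1 (0.887).

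The wider osteoclast pathway was read from 8 lists with 87 genes, of which 84 had a value. By limma's adjusted p over all genes, 2 of them fell, namely Csf1r and Irf8, and 0 rose, against 0.337% of all genes lower. At an unadjusted p under 0.05, 22 of the 84 (26.2%) were lower and 0 higher, where 5.49% and 3.31% of all genes were. The median difference over the 84 genes was -0.11, against 0.03 over all genes. Vehicle 2 exceeded each other library by at least 1 log2 unit for 4 of the 84, namely Nfatc2, Adam12, Mmp14 and Slc37a2.

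The CSF1 axis held the larger of the 2 falls. Csf1r was at 2.57, 2.78 and 1.71 in AZD7507 1, 2 and 3, against 4.85, 5.47 and 4.59 in Vehicle 1, 2 and 3. It fell by 2.62 (SE 0.32, limma adjusted p 0.035), and no library of one group overlapped the other. The gene overlaps Hmgxb3 on the opposite strand. Of its ligands, Csf1 differed by 0.10 and Il34 by 0.33, and neither passed (limma adjusted p 0.93 and 0.83).

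The RANKL axis had 12 of 12 genes measured and 0 called. At an unadjusted p under 0.05, 1 (8.33%) was lower, against 5.49% of all genes. The median difference of the list was -0.06. The kinase gene Ikbkb, of the NF-kB pathway below RANK, differed by -0.43 (SE 0.12, limma adjusted p 0.32), Nfkb1 by -0.21 and Chuk by 0.14. A pair of genes was added after their values had been seen, for their role. The ligand RANKL (Tnfsf11) was at -1.002, 0.36 and -1.59 in AZD7507 1, 2 and 3, against -1.26, -0.04 and -2.52 in Vehicle 1, 2 and 3, highest in the acinar-rich library of each group. Its decoy receptor osteoprotegerin (Tnfrsf11b) was at 1.42, 0.29 and 0.70 in AZD7507 1, 2 and 3, against 0.84, 0.65 and 1.05 in Vehicle 1, 2 and 3.

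The costimulatory receptors, which pass ITAM signals to NFATc1, had the lowest median of the 8 lists, at -1.15. All 8 measured of 10 had a negative difference, and 0 passed over all genes with limma. At an unadjusted p under 0.05, 6 (75%) were lower, against 5.49% of all genes. Tyrobp, the adaptor DAP12, was at 2.72, 2.32 and 1.59 in AZD7507 1, 2 and 3, against 3.57, 4.37 and 3.59 in Vehicle 1, 2 and 3 (difference -1.63, SE 0.33, limma adjusted p 0.13). The adaptor gene Fcer1g differed by -1.44 and the kinase gene Syk by -0.99 (limma adjusted p 0.16 and 0.19). Without Vehicle 2 the median of the list was -1.09, against -0.07 for the 9 osteoclast-type genes. Tyrobp, Fcer1g and Syk are used by macrophages at large.

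Transcription factors were read as repressors and as activators. Among the 7 repressors of the osteoclast programme, 1 passed, downward, and the median difference was -0.49. Of these 7, 4 (57.1%) were lower at an unadjusted p under 0.05, against 5.49% of all genes. Irf8, which holds precursors back from the osteoclast fate, was at 0.89, 0.90 and 0.30 in AZD7507 1, 2 and 3, against 2.22, 2.65 and 2.34 in Vehicle 1, 2 and 3. It fell by 1.71 (SE 0.21, limma adjusted p 0.035). The kinase gene Lyn, of the same list, differed by -1.25 (SE 0.25, limma adjusted p 0.13). Of the 13 activators 0 passed, with a median of -0.15. At an unadjusted p under 0.05, 2 (15.4%) were lower, against 5.49% of all genes. The lineage factor Spi1, which encodes PU.1, differed by -1.39 (SE 0.40, limma adjusted p 0.32), Nfatc2 by -1.83 and Myc by 0.43. In each fit that left out 1 library, Csf1r and Irf8 kept their direction but no longer passed, with limma adjusted p of 0.067 to 0.15 and 0.078 to 0.15, and no other pathway gene passed there.

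Fusion, acid secretion and adhesion lists had medians near that of all genes, at -0.11, -0.05 and -0.12. At an unadjusted p under 0.05, 18.2%, 12.5% and 28.6% of their measured genes were lower, against 5.49% of all genes. In the fusion list (11 of 12 measured) 0 passed and 2 were lower at an unadjusted p under 0.05. The purinergic receptor gene P2rx7 differed by -0.59, the receptor gene Sirpa by -0.51 and Sbno2 by -0.29. Adam12, a metalloprotease gene linked to fusion, was at 2.25, 2.39 and 1.72 in AZD7507 1, 2 and 3, against 1.49, 4.66 and 0.92 in Vehicle 1, 2 and 3, and was singled out after its values had been seen. In the acid and resorption list (16 of 16) 0 passed and 2 were lower at an unadjusted p under 0.05. Tcirg1, the a3 subunit of the osteoclast proton pump, was at 4.37, 4.35 and 4.31 in AZD7507 1, 2 and 3, against 4.80, 4.76 and 4.71 in Vehicle 1, 2 and 3, so the groups did not overlap. The Tcirg1 difference of -0.41 (limma adjusted p 0.18) had an SE of 0.09, and it was -0.41 without Vehicle 2 too. Slc37a2 differed by -1.34 and Plekhm1 by -0.17. In the adhesion list (14 of 14) 0 passed and 4 were lower at an unadjusted p under 0.05. The kindlin gene Fermt3 differed by -1.29, the myosin gene Myo1f by -1.44 and the integrin gene Itgb5 by -0.57 (limma adjusted p 0.12, 0.15 and 0.28).

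**Figure D5:**
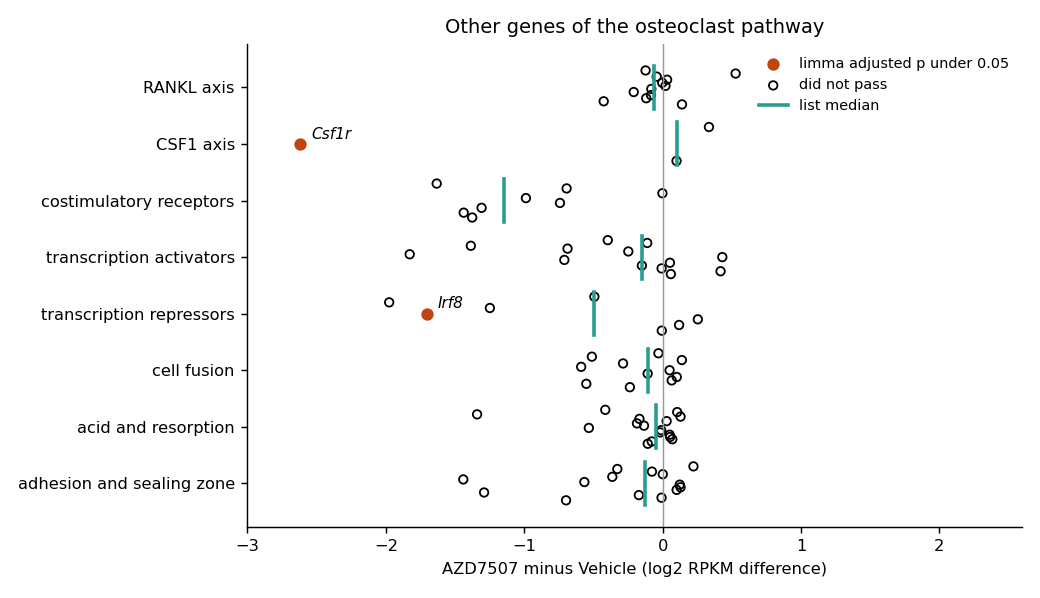
AZD7507 minus vehicle difference (log2 RPKM) of the 84 other osteoclast pathway genes, 1 point per gene in 8 lists, with list medians as green bars and genes past the limma threshold filled. Csf1r at -2.62 and Irf8 at -1.71 are the 2 genes that passed, and the costimulatory receptors have the lowest median, -1.15.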

How the data were processed

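RNA from 3 AZD7507 and 3 vehicle tumours was analysed, with groups from the treatment label and replicates numbered in record order. Total RNA was depleted of ribosomal RNA before library preparation, per the labels' protocols. The deposited values are log2 RPKM after normalization by the authors with cqn, going by the table's name. BWA 0.7.15-r1140, HTSeq, mm10 and GRCm38 are named in the submitters' processing notes. For annotation release, strand setting, low-gene filter and depth nothing is given in the sources used here, so no counting interval is printed. Symbols matched 16306 of 16344 identifiers.

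The values were tested as deposited with limma 3.58.1 in R 4.3.3 (trended, robust prior; 2-sided, Benjamini-Hochberg over 16344 genes). The fit was tested on simulated data with 200 changed genes. Alternatives were adding 1 or 0.1 RPKM before the log2, keeping genes with a mean log2 RPKM of at least 0, a constant prior, array weights, median centring, quantile normalization, leaving out each library, and leaving out both acinar-rich libraries. Named genes are the 9 members, Csf1r, the called genes and the 3 with the smallest unadjusted p of each pathway list, and the 10 genes of highest correlation with the members. A gene that this rule took is left out. Members and lists were chosen with earlier results of these data known.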

Additional observations from a re-analysis of the deposited data

How the results depend on the processing

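The median difference of the 9 genes was -0.997 with all libraries and ran from -1.29 without Vehicle 1 to -0.07 without Vehicle 2 when 1 library was left out. It was -0.08 without both acinar-rich libraries, -0.36 with array weights, -0.64 with a pseudocount of 1 and -0.90 over the 6 genes left at a minimum mean log2 RPKM of 0. None of the 9 genes passed under any alternative with limma. Over all genes, 55 fell and 3 rose. Leaving out 1 library gave 0 to 14 lower and 0 higher, and for the other pathway genes 0 lower against 2. Without Vehicle 2 there were 1359 lower and 1082 higher genes at an unadjusted p under 0.05, against 898 and 541 with all libraries. Leaving out any other single library gave 606 to 802 lower and 257 to 493 higher at that threshold. Array weights gave 143 lower and 14 higher genes, and 4 lower pathway genes. Without both acinar-rich libraries there were 13 lower, 1 higher and 0 pathway genes, and with a constant prior 43 lower, 1 higher and 0 pathway genes. The cause of these shifts was not tested. Fits that left out libraries also had fewer samples. Signs of member differences changed for Ctsk (0.01) without Vehicle 2, for Acp5 (0.04) and Mmp9 (0.05) without both acinar-rich libraries, and for Itgb3 without Vehicle 2 (0.43), without AZD7507 1 (0.05), without AZD7507 3 (0.19) and with array weights (0.15). No paired analysis was possible because the labels give no replicate number that the groups share. With 3 libraries a group and unknown depth, values below 0 log2 RPKM, as for Dcstamp, Atp6v0d2 and Calcr, limit what can be seen.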
